A study of Rattus norvegicus with 2 samples.

Results

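The genes described here are 10 chaperone-system genes: the cytosolic HSP90 genes Hsp90aa1 and Hsp90ab1, their cochaperones Ahsa1, Fkbp4, Ptges3 and Cdc37, the mitochondrial chaperones Trap1, Hspd1 and Hspe1, and the heat shock transcription factor gene Hsf1. They were chosen by name, and all 10 were found by their symbols among the 18049 genes of the deposited table. RNA was sequenced from oligodendrocyte precursor cells (OPCs), the glial progenitors that form myelinating oligodendrocytes. The cells were wild type, were isolated by immunopanning from the cortex of rat pups of postnatal day 2 to 4, and were cultured with 60 nM thyroid hormone (T3) in medium without PDGF-AA, bFGF and NT3. The design places them at day 2 of T3, as immature oligodendrocytes. Of the 2 groups, siSCR received a scrambled small interfering RNA by electroporation. The siHsc70 group received an siRNA against Hsc70, the constitutive HSP70 chaperone encoded by Hspa8. Each group is 1 library, so no spread between cultures could be measured and no test between the groups was possible. The intervals given are 95% intervals for counting error only, and reads without molecular identifiers are not independent molecules.

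HSP90 is an abundant chaperone of the cytosol that works as a dimer, binds ATP and helps late folding steps of protein kinases, steroid receptors and many other clients. It receives clients from the HSP70 system, and cochaperones set which clients it takes up and how fast it cycles. In mitochondria, HSP60 forms a folding chamber that HSP10 closes as a lid, and TRAP1 is the HSP90 of that compartment. HSF1 is the transcription factor of the heat shock response. Chaperones are known to hold HSF1 inactive, and it binds heat shock elements, runs of alternating GAA and TTC blocks, when misfolded protein accumulates.

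Total estimated counts were 19085587 in siSCR and 18130768 in siHsc70. Levels within a gene are given as CPM, counts scaled to a common library total with a correction for library composition, and levels between genes as the deposited TPM, which also corrects for transcript length. A difference is log2(CPM + 1) in siHsc70 less the same in siSCR, and a fold is the ratio of scaled counts without that added 1. The targeted gene Hspa8 was at 1399 CPM in siSCR against 507 CPM in siHsc70, 2.76-fold lower (2.69 to 2.83). Of 13518 genes measured (mean of 1 CPM or more), 310 were at least 2-fold higher and 695 at least 2-fold lower in siHsc70, or 207 and 810 with the deposited TPM. All 10 oligodendrocyte lineage markers were measured, and 7 of them were at least 2-fold lower in siHsc70, their summed level being 8133 CPM in siSCR against 3038 CPM in siHsc70. Markers of other cells summed to 3786 and 3257 CPM for 8 astrocyte genes (2 at least 2-fold lower), 745 and 502 CPM for 8 neuronal genes (2 lower) and 43.3 and 107 CPM for 8 fibroblast and mural genes (2 higher). They summed to 12 and 11.6 CPM for 7 endothelial genes (1 lower) and 3.07 and 4.89 CPM for 5 microglial genes (1 higher). Aif1 had a count of 0 in siSCR, and Lum and Cdh5 in siHsc70, where 3 counts correspond to 0.156 and 0.167 CPM. The part of these marker differences in the values below was not tested, and in bulk RNA fewer cells of a type cannot be told apart from less RNA per cell.

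Among the 10 genes, the cytosolic HSP90 genes differed most between the libraries. Of the 10 genes, 1 was at least 2-fold higher in siHsc70, Hsp90aa1, and 0 were at least 2-fold lower, beside 2.29% and 5.14% of all measured genes. Against the lower bar of 1.5-fold, 5 of the 10 were higher (Hsp90aa1, Hsp90ab1, Ahsa1, Hspd1 and Fkbp4) and 0 were lower, beside 9.65% and 12% of all measured genes. By scaled counts all 10 were higher in siHsc70 by some amount, and by the deposited TPM 7 were. Of these, Trap1, Cdc37 and Hsf1 lay near the middle of all measured genes by scaled counts. The percent of genes with a smaller difference was 57.8, 58.6 and 58.9 for them. The 10 genes are well expressed, and among the 5028 genes with a mean as high as that of Hsf1, the least abundant of them, 1.51% were at least 2-fold and 6.96% at least 1.5-fold higher. The median difference of the 10 genes was 0.58, and that of all measured genes was -0.0034. By the deposited TPM the medians were 0.44 and -0.13, and 2 of the 10 genes, Hsp90aa1 and Hsp90ab1, were at least 1.5-fold higher. The values lie in a graded order in which Hsp90aa1 and Hsp90ab1 come first, followed by Ahsa1, Hspd1, Fkbp4, Hspe1 and Ptges3 between 1.37-fold and 1.61-fold higher. Hsf1, Cdc37 and Trap1 close it at 1.07-fold, 1.06-fold and 1.06-fold. Neighbours with overlapping counting intervals in this order are Ahsa1 and Hspd1, Hspd1 and Fkbp4, Fkbp4 and Hspe1, Hspe1 and Ptges3, and the 3 genes at its end among themselves.

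**Figure D1:**
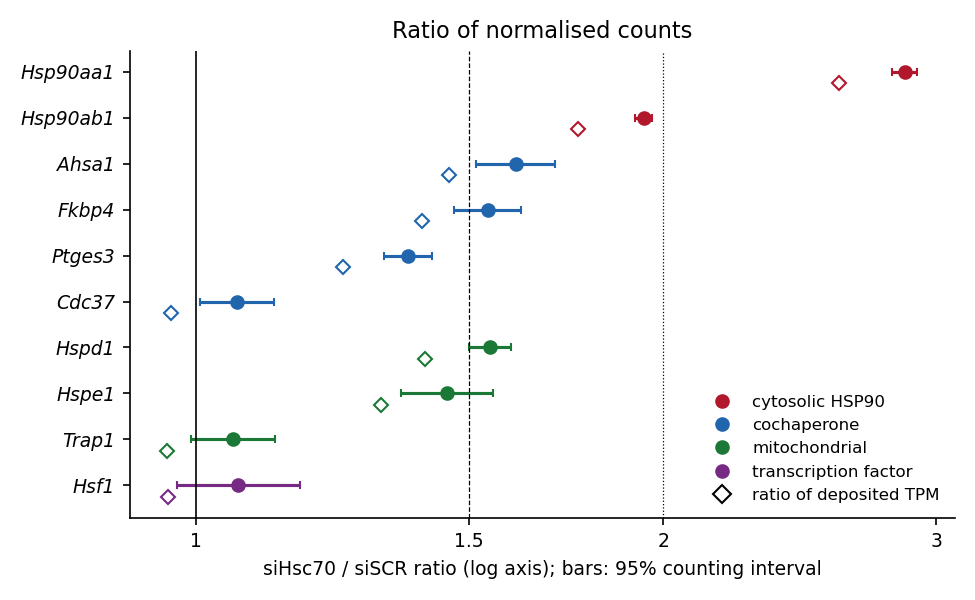
Ratio of siHsc70 to siSCR for each of the 10 genes on a log axis, as scaled counts with 95% counting intervals (filled points, coloured by role) and as deposited TPM (open diamonds); lines mark ratios of 1, 1.5 and 2. Hsp90aa1 lies at 2.86 and Hsp90ab1 at 1.94, whereas Trap1, Cdc37 and Hsf1 lie at 1.06 to 1.07 by counts and just below 1 by TPM.

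Hsp90aa1 (gene ID 299331), which encodes the stress-inducible HSP90 alpha, was at 801 CPM in siSCR against 2292 CPM in siHsc70. The siHsc70 library was the higher one, by 2.86-fold (2.81 to 2.92), a difference of 1.52. By TPM it took rank 213 among all genes in siSCR and rank 62 in siHsc70. Among the 28 genes with a mean CPM at least as high as its own, itself included, it had the largest difference. Over all measured genes, 45 had a larger one.

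Hsp90ab1 (gene ID 301252), which encodes the constitutive HSP90 beta, was the most abundant of the 10 genes in both libraries, at 1727 TPM in siSCR and 3045 TPM in siHsc70. Its scaled counts were 1884 and 3661 CPM, 1.94-fold higher in siHsc70 (1.92 to 1.97). The difference of 0.96 lay just under the 2-fold rule, and it passed that rule, at 1.02, under upper-quartile scaling. Of the 13 genes at least as abundant, itself included, it had the third largest difference. Counts of both HSP90 genes were not whole numbers, so that some of their reads were shared with other rows. One such row was found by name, the pseudogene Hsp90ab1-ps17, with 22.2 CPM in siSCR against 50.1 CPM in siHsc70. With it added, Hsp90ab1 was 1.95-fold higher (1.92 to 1.97).

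Per transcript length, the 2 genes together held 2342 TPM in siSCR and 4640 TPM in siHsc70, or 0.234% and 0.464% of all TPM. The combined scaled count was 2.22-fold higher in siHsc70 (2.19 to 2.24). For comparison, Hspa8 was at 1431 TPM in siSCR and 471 TPM in siHsc70, and the inducible HSP70 genes Hspa1a and Hspa1b together at 43.5 and 377 TPM. Cytosolic HSP90 stood at 1.64 TPM per TPM of Hspa8 in siSCR and 9.86 in siHsc70, 6.12 times as high by counts (5.96 to 6.28). These levels depend on the pseudogene row Hspa8-ps25, at 924 TPM in siSCR and 318 TPM in siHsc70, whose counts, like those of Hspa8, were not whole numbers. With pseudogene rows added to both sides the ratio was 1.00 in siSCR and 5.94 in siHsc70, 6.01 times as high (5.89 to 6.14). Both ratios are divided by the siRNA target Hspa8, itself 2.76-fold lower in siHsc70, so they rise with the knockdown alone. The gain in TPM was larger for cytosolic HSP90 (2298) than for Hspa1a and Hspa1b (333.5).

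The balance of the HSP90 isoforms also differed. Hsp90aa1 made up 26.2% of their summed TPM in siSCR and 34.4% in siHsc70. Its ratio to Hsp90ab1 was 0.356 and 0.524, and this ratio was 1.47 times as high in siHsc70 (1.44 to 1.51 from the counts). A ratio between genes of the same library does not depend on how the libraries are scaled, and it was also 1.47 times as high with the deposited TPM or with the pseudogene row added. The beta gene was the more abundant one in both libraries. Hsp90b1, the HSP90 gene of the endoplasmic reticulum and the remaining family member, was at 443 CPM in siSCR against 484 CPM in siHsc70, 1.09-fold higher. Its TPM was 338 and 335. Relative to cytosolic HSP90 it stood at 0.144 in siSCR and 0.0721 in siHsc70.

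**Figure D2:**
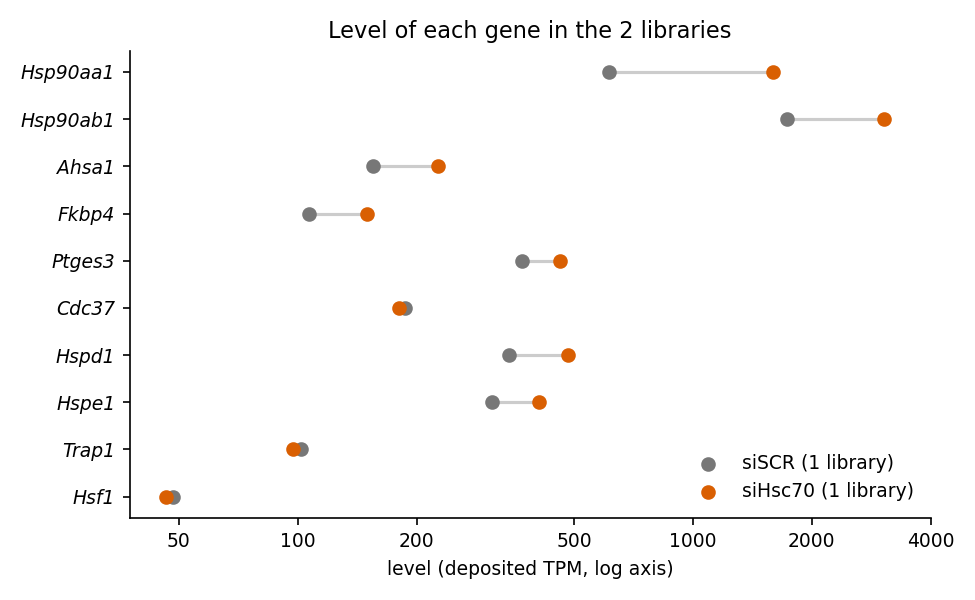
Deposited TPM of each of the 10 genes on a log axis in the siSCR library (grey) and the siHsc70 library (orange), with a line joining the 2 values of a gene. The level was higher in siHsc70 for 7 genes, and the points nearly coincide for Cdc37 (187 and 181 TPM), Trap1 (102 and 97.5 TPM) and Hsf1 (48.3 and 46.3 TPM).

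The cochaperone genes were higher to a smaller degree than the chaperone they serve, or at a similar level in both libraries. Ahsa1 (gene ID 681996) encodes AHA1, which stimulates the ATPase of HSP90. It was at 99.2 CPM in siSCR against 159 CPM in siHsc70. The siHsc70 library was 1.61-fold higher (1.52 to 1.70). Fkbp4 (gene ID 260321) encodes FKBP52, an immunophilin that binds HSP90 in steroid receptor complexes. Its level was 142 CPM in siSCR against 219 CPM in siHsc70, 1.54-fold higher in siHsc70 (1.47 to 1.62).

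Ptges3 (gene ID 362809) encodes p23, which stabilises the closed, ATP-bound form of HSP90. With 370 TPM in siSCR and 460 TPM in siHsc70 it was the most abundant of these 4 cochaperone genes. Its scaled counts were 284 and 390 CPM, 1.37-fold higher in siHsc70 (1.32 to 1.42), and were not whole numbers. Cdc37 (gene ID 114562) encodes the cochaperone that brings protein kinases to HSP90. It was at 138 CPM in siSCR against 147 CPM in siHsc70, a ratio of 1.06 (1.01 to 1.12). By TPM the direction was the opposite, 187 in siSCR and 181 in siHsc70, a ratio of 0.964. The direction for Cdc37 thus depends on the scaling.

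Set against cytosolic HSP90, all 4 cochaperones stood lower in siHsc70. Cytosolic HSP90 was itself 2.22-fold higher by counts, so any gene less than 2.22-fold higher stands lower by this ratio. The fall is therefore not particular to cochaperones, and the ratio was 0.493 times as high for Hsp90b1, 0.477 for Trap1 and 0.480 for Hsf1. One Cdc37 transcript was present for every 12.5 transcripts of cytosolic HSP90 in siSCR and for every 25.7 in siHsc70. That ratio of Cdc37 to HSP90 was 0.479 times as high in siHsc70 (0.454 to 0.506). The corresponding changes were 0.725 (0.683 to 0.769) for Ahsa1, 0.695 (0.661 to 0.731) for Fkbp4 and 0.618 (0.596 to 0.641) for Ptges3. The order of the cochaperones relative to each other shifted with it. In siSCR Cdc37 was above Ahsa1, at 187 against 155 TPM, and in siHsc70 it was below, at 181 against 226 TPM.

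**Figure D3:**
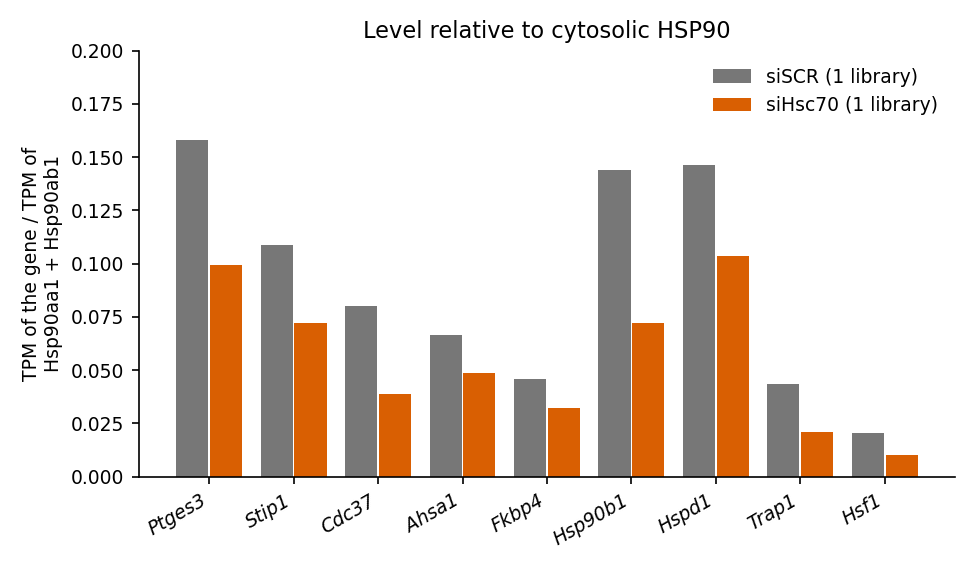
TPM of each gene divided by the summed TPM of Hsp90aa1 and Hsp90ab1 in the siSCR (grey) and siHsc70 (orange) libraries, from 0. Every gene drawn stands lower in siHsc70, from 0.0800 to 0.0389 for Cdc37 and from 0.158 to 0.0991 for Ptges3. The divisor itself was 2.22-fold higher in siHsc70 by counts.

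Among 34 genes listed as HSP90 cochaperones, the 4 above included, 33 were measured. None was at least 2-fold higher or lower, beside 2.29% and 5.14% of all measured genes. At 1.5-fold, 4 were higher and 2 lower, 12.1% and 6.06% of the list beside 9.65% and 12% of all measured genes. With the deposited TPM 1 was at least 1.5-fold higher and 4 lower, and 1 of these 4, Fnip1, passed 2-fold. The list's median was 0.13, or -0.012 with the deposited TPM. The gene furthest from 0 was Fnip1, a folliculin partner that slows the HSP90 ATPase, at 82.2 CPM in siSCR against 41.9 CPM in siHsc70, a ratio of 0.51. The remaining 3 past 1.5-fold, named after their values were seen, were Chordc1, Cacybp and Flcn. Chordc1 was at 57.6 CPM in siSCR against 107 CPM in siHsc70. Cacybp was at 116 and 188 CPM, and Flcn, which encodes folliculin itself, at 68.1 and 39.2 CPM. Stip1, also chosen after its value was seen, encodes HOP, the adaptor that joins HSP70 to HSP90. It was at 248 CPM in siSCR against 358 CPM in siHsc70, 1.44-fold higher.

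In mitochondria the chaperonin genes were higher in siHsc70 and the HSP90 paralogue was not. Hspd1 (gene ID 63868), which encodes HSP60, was at 357 CPM in siSCR against 552 CPM in siHsc70. It was 1.55-fold higher (1.5 to 1.60), a difference of 0.63. Hspe1 (gene ID 25462), which encodes HSP10, was at 76.7 CPM in siSCR against 111 CPM in siHsc70, 1.45-fold higher (1.36 to 1.55). Both counts were whole numbers in both libraries. Hspe1 has a short transcript, and per length the pair stood close together, at 343 and 310 TPM in siSCR and 482 and 408 TPM in siHsc70. The ratio of Hspd1 to Hspe1 was 1.11 in siSCR and 1.18 in siHsc70. Its change of 1.07 times (0.990 to 1.15) was within counting error.

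Trap1 (gene ID 287069) was at 106 CPM in siSCR against 112 CPM in siHsc70, a ratio of 1.06 (0.993 to 1.12) that was within counting error. By TPM it was at 102 and 97.5, a ratio of 0.959. Hspd1 relative to Trap1 was 1.46 times as high in siHsc70 (1.37 to 1.57). All 22 listed mitochondrial chaperone and protease genes were measured. None was 2-fold higher or lower, beside 2.29% and 5.14% of all measured genes, and 3 were at least 1.5-fold higher, or 0 with the deposited TPM. The 3 are 13.6% of the list, near the 9.65% of all measured genes. The list's median was 0.27, or 0.11 with the deposited TPM, beside -0.0034 and -0.13 for all measured genes. Of the 22, 19 were higher by any amount, against 13 with the deposited TPM. Furthest from 0 was Dnlz, which encodes a helper of mitochondrial HSP70, at 32.2 CPM in siSCR against 52.4 CPM in siHsc70. Hspa9, the mitochondrial HSP70 itself, was named after its value was seen and was at 447 and 619 CPM, a ratio of 1.38.

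Hspd1 and Hspe1 lie head to head on rat chromosome 9 (RefSeq, build GRCr8), and their annotated spans overlap by 6 bases, so that upstream sequence is shared. Promoter windows of 250 bases before and 50 bases after a start were at hand for 8 of the 10 genes, and those of Hspd1 and Hspe1 overlap by 211 bases. They were searched for 2 adjoining heat shock blocks in either order, GAANNTTC or TTCNNGAA. Both forms read the same on either strand, and matches may overlap. Of 33469 promoter windows of the same length, 15.9% hold such a match and 0.798% hold 3 adjoining blocks. The sequences below are shown because they hold the matches found. They are the 250 bases before the annotated start, in the direction of the named gene, with the matching blocks in capitals.
Hspe1, chr9:64084077-64084326, plus strand: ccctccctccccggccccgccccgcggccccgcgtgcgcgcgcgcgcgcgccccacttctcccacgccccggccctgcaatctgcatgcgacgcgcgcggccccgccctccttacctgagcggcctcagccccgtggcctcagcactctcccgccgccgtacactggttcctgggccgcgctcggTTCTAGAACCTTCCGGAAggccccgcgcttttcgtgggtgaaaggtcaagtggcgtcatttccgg
Fkbp4, chr4:163397919-163398168, minus strand: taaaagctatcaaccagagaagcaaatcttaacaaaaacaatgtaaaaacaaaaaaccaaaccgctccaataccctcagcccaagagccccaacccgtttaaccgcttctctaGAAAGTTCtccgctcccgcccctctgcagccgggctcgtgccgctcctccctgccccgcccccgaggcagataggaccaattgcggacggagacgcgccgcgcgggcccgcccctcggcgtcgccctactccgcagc
Cdc37, chr8:27966931-27967180, minus strand: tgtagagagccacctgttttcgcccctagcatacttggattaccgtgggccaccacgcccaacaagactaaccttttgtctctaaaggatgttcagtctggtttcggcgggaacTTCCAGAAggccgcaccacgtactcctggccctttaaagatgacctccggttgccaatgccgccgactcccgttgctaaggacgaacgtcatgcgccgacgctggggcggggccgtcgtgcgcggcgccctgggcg

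The shared Hspd1 and Hspe1 window holds an unbroken run of 18 bases at chr9:64084262-64084279, made of 3 overlapping matches of 2 blocks, and 2 of 3 blocks. It ends 47 bases before the Hspe1 start in the Hspe1 direction and 224 bases before the Hspd1 start used in the table. The longest annotated Hspd1 span, which ends at 64084332, covers it. On the Hspe1 strand the run reads as follows.
Run in the Hspe1 window: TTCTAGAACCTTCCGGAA

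Fkbp4, 1.54-fold higher in siHsc70, and Cdc37, at a ratio of 1.06, each hold 1 match of 2 blocks, 129 and 128 bases before the start. Hsp90ab1, Ahsa1, Ptges3 and Trap1 hold none in their windows, and windows for Hsp90aa1 and Hsf1 were not used. Windows with a match thus belong to 3 higher genes (Hspd1, Hspe1 and Fkbp4) and to Cdc37, while 3 other higher genes (Hsp90ab1, Ahsa1 and Ptges3) have none. Hspd1 and Hspe1 share the same run. For Hsp90ab1, Ahsa1, Ptges3 and Cdc37 the longest annotated span begins inside the window, so fewer than 250 bases before that span were searched. The Hspd1 window lies wholly within the longest annotated Hspd1 span, so it holds no bases before that span. The contrast of match and no match therefore rests on unequal stretches of upstream sequence. A match describes letters in a short window and is no measure of binding, and a missing match says only that these letters are not in that window.

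Hsf1 (gene ID 79245) was the least abundant of the 10 genes, with estimated counts of 936 in siSCR and 932 in siHsc70. Its scaled level was 48.6 CPM in siSCR against 51.8 CPM in siHsc70, a ratio of 1.07 (0.972 to 1.17). The libraries differed by less than the counting error. By TPM Hsf1 was at 48.3 and 46.3, a ratio of 0.959. One Hsf1 transcript was present for every 48.5 transcripts of cytosolic HSP90 in siSCR and for every 100.3 in siHsc70. Hsf2, the other measured heat shock factor gene, was at 83.8 CPM in siSCR against 81.0 CPM in siHsc70. The ratio of Hsf1 to Hsf2 changed by 1.10 times (0.983 to 1.24), within counting error. Hsf4 and Hsf5 were below the mean of 1 CPM. Of 18 listed HSF1 regulators, all measured, 0 were at least 2-fold higher or lower, beside 2.29% and 5.14% of all measured genes. By any amount 7 were higher and 11 lower, or 4 and 14 with the deposited TPM. At 1.5-fold, 0 were higher and 1 was lower, or 2 lower with the deposited TPM. The list's median was -0.057, or -0.18 with the deposited TPM, beside -0.0034 and -0.13 for all measured genes. The gene furthest from 0 was Plk1, a mitotic kinase, at 17.3 CPM in siSCR against 10.2 CPM in siHsc70.

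Genes known as HSF1 targets were mostly higher in siHsc70, while Hsf1 itself was at a like level in both libraries. Of 29 listed, all were measured, 28 were higher by any amount (27 with the deposited TPM), 10 were at least 2-fold higher and 1, the silenced Hspa8, at least 2-fold lower. Those past 2-fold are 34.5% and 3.45% of the list, beside 2.29% and 5.14% of all measured genes. The list was drawn up with earlier results of these data known, so its shares describe it and are no test of it. The list's median was 0.69, beside -0.0034 for all measured genes. Without the 6 of the 10 genes that the list holds, the list's median was 0.72 over 23 genes, 9 of them at least 2-fold higher. The 4 furthest were Hspa1a (1.56 and 24.1 CPM), Hspa1b (42.2 and 395 CPM), Hspb1 (32.9 and 267 CPM) and Cryab (18.8 and 95.7 CPM), given for siSCR and siHsc70. Hspa1a and Hspa1b are near-identical copies that share reads, yet each is counted in these shares. Within this list Hsp90aa1 came next after those 4 and Hsph1 in difference (1.52), and Hsp90ab1, Ahsa1, Hspd1, Fkbp4 and Hspe1 lay between 0.53 and 0.96. Of 24 targets with a promoter window, 16 held a match of 2 blocks and 7 held 3 adjoining blocks, the overlapping Hspd1 and Hspe1 windows counting as 2. The shares over all promoter windows were 15.9% and 0.798%.

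**Figure D4:**
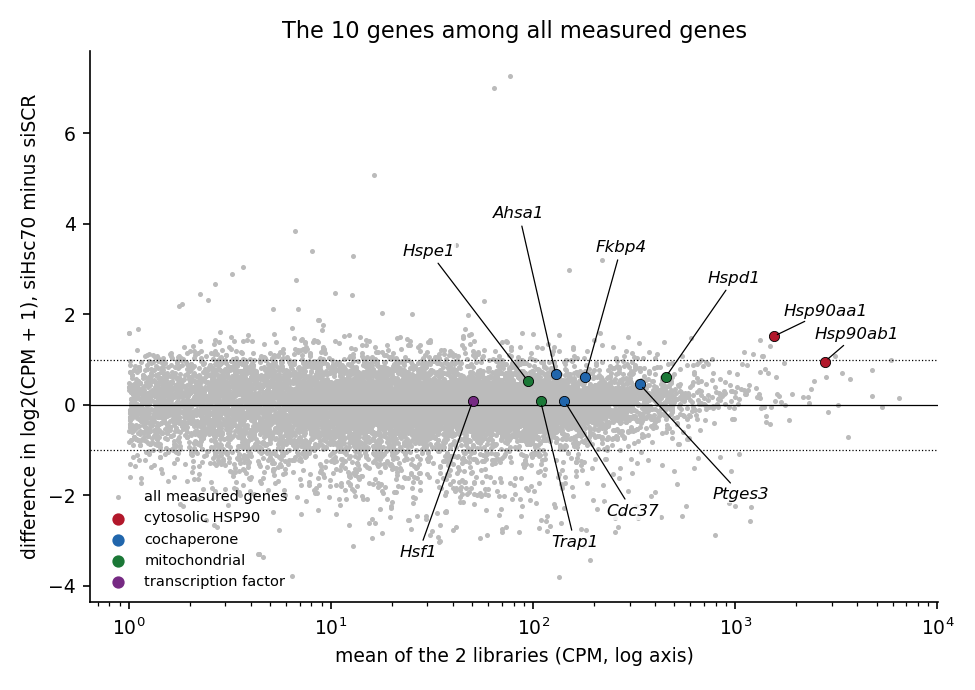
Difference in log2(CPM + 1), siHsc70 minus siSCR, against the mean CPM of the 2 libraries on a log axis for all 13518 measured genes (grey), with the 10 genes coloured by role. Dotted lines mark a difference of 1 in either direction; Hsp90aa1 lies above the upper line at 1.52 and Hsp90ab1 just under it at 0.96, both at the abundant end.

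Genes whose protein products are HSP90 clients are given at the transcript level as context. Of 30 kinases listed as clients of HSP90 and CDC37, 29 were measured, 0 were at least 2-fold higher and 2 at least 2-fold lower. The 2 are 6.90% of the list, near the 5.14% of all measured genes, and 1 was left with FPKM. Their median was 0.0031, or -0.18 with the deposited TPM. The genes past 2-fold were Fyn, a Src-family kinase with a role in myelination, at 1155 CPM in siSCR against 517 CPM in siHsc70, and Erbb3, a neuregulin receptor, at 24.4 and 9.34 CPM. Both are expressed in oligodendrocyte lineage cells, whose markers were lower in the same library (8133 and 3038 CPM summed), and the part of that difference was not tested.

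**Figure D5:**
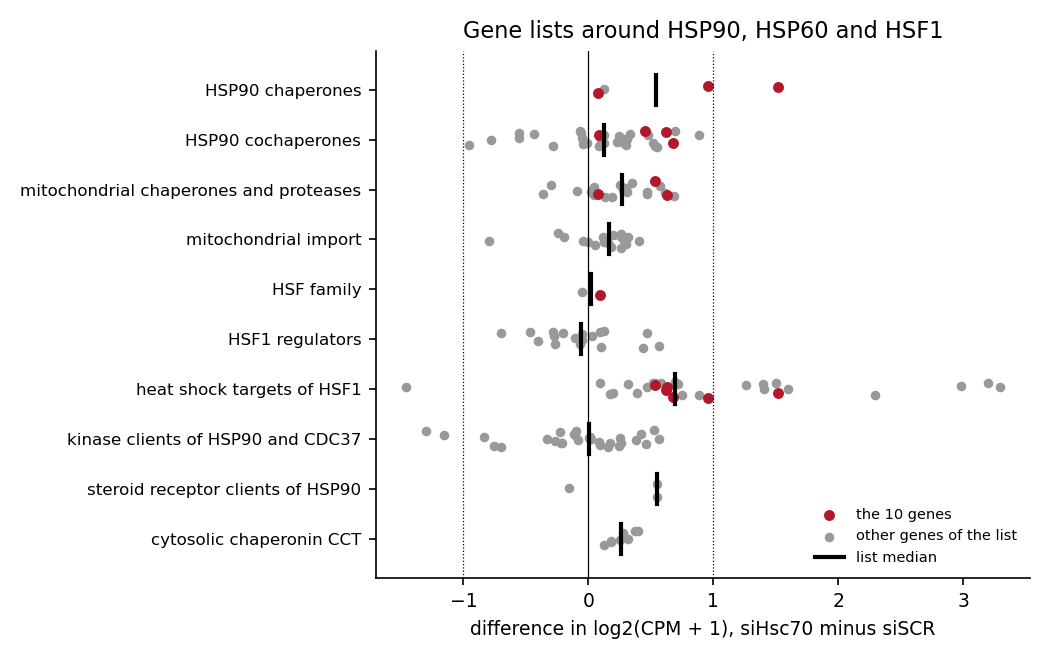
Difference in log2(CPM + 1), siHsc70 minus siSCR, for each measured gene of the 10 context lists (one point per gene, with vertical jitter), the 10 described genes in red and each list's median as a black bar. The HSF1 target list has its median at 0.69 and reaches past 3, whereas the HSP90 cochaperone, HSF1 regulator and kinase client lists have medians of 0.13, -0.057 and 0.0031.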

How the data were processed

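The members and gene lists were chosen with earlier results of these data known. The table holds, per library, estimated counts (not normalised by the authors, per the file headers), deposited FPKM and deposited TPM. The submitters' processing notes name build mm39, although the table carries rat gene IDs (16783.0 of 18049 found in rat RefSeq, GRCr8). Which aligner, counting program and strand setting were used is not given in the sources used here. Columns were tied to samples by the siRNA in their names. Estimated counts were rounded and scaled with TMM factors (edgeR 4.0.16, R 4.3.3). A mean of 1 CPM or more made a gene measured. Intervals of folds are exact (Clopper-Pearson), and those of ratios between genes are normal approximations on the log scale. Named genes were the 10 members, each list's genes past 2-fold (the 4 furthest where over 6 passed, the furthest where none did), Hspa8, and for Hsp90aa1, Hspd1 and Hsf1 the 3 genes nearest in difference at a mean CPM within 2-fold. The procedure was run on simulated Poisson counts drawn from the observed means. They hold no spread between cultures, so that run checks the computation and not the comparison of the groups. Other scalings, units, pseudocounts, filters, summed pseudogene rows and a lower fold rule were tried (11 settings), and 1 filter was added after seeing the data.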

Additional observations from a re-analysis of the deposited data

How the results depend on the processing

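No paired analysis was possible because each group is 1 library, and leaving out a replicate was not possible for the same reason. The depth (at least 932 counts per member) sets only the width of the counting intervals, and those of Trap1 and Hsf1 include a ratio of 1. Across the settings the difference ran from -0.0605 to 0.141 for Trap1 and from -0.0592 to 0.151 for Hsf1. The number of members at least 2-fold higher, 1 as reported, became 2 with upper-quartile factors and 5 with a 1.5-fold rule. With the deposited TPM the members' median was 0.44, 2 instead of 5 members were at least 1.5-fold higher, and the differences of Trap1, Cdc37 and Hsf1 changed sign to -0.0605, -0.0524 and -0.0592. The other 7 members were higher in siHsc70 under all alternatives run, Hsp90aa1 by 1.37 to 1.58 and Hsp90ab1 by 0.82 to 1.02. The median of all genes, -0.0034, was 0.0546 with upper-quartile scaling, 0.0050 with no filter and 0.0009 over genes as abundant as the members, the added alternative. All genes at least 2-fold higher, 310 as reported, numbered 203 with FPKM, 518 and 132 with pseudocounts of 0.1 and 5, 1304 with the 1.5-fold rule and 76 among genes as abundant as the members. Those at least 2-fold lower, 695, numbered 417 with a pseudocount of 5, 1626 with the 1.5-fold rule and 186 among such genes. With the deposited TPM 1 cochaperone, not 0, was at least 2-fold lower. List medians near 0 changed sign: cochaperones to -0.0116 (TPM); the HSF family, 0.02, to -0.0026 (total count), -0.12 (TPM) and -0.0043 (FPKM); HSF1 regulators to 0.0042 (upper quartile). Kinase clients went to -0.014 (RLE factors), -0.0202 (total count), -0.18 (TPM), -0.0595 (FPKM), -0.0409 (mean of at least 5 CPM) and -0.0409 (genes as abundant as the members), and 1 and not 2 of them were at least 2-fold lower with FPKM and in that last setting. The list of steroid receptor clients also holds Ahr, which encodes the aryl hydrocarbon receptor and not a steroid receptor. The list's median, 0.55 over 3 genes, was 0.32 with TPM and with a pseudocount of 5, 0.15 with FPKM, 0.22 with no filter, 0.19 with a mean of at least 5 CPM and -0.16 among genes as abundant as the members, the filters changing which genes the list holds. The cause was not tested.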

Other observations

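The cytosolic chaperonin CCT, a folding chamber for actin and tubulin and the cytosolic counterpart of HSP60, was described beside these genes. All 8 subunit genes were measured and higher in siHsc70 by any amount (7 with the deposited TPM), 0 of them by 1.5-fold, with a median of 0.26 (0.12 with the deposited TPM). All measured genes had a median of -0.0034 (-0.13 with the deposited TPM), and 9.65% of them were at least 1.5-fold higher. Cct2 was furthest from 0, at 269 CPM in siSCR against 354 CPM in siHsc70. Of 18 listed mitochondrial import genes, 13 were higher and 5 lower by any amount, or 11 and 7 with the deposited TPM. Their median was 0.17, or 0.04 with the deposited TPM, and Timm8a1 was furthest from 0 at 58.6 CPM in siSCR against 33.3 CPM in siHsc70. Of 7 genes of receptors that HSP90 holds ready for their ligands, 3 were measured. None of these was 2-fold higher or lower, beside 2.29% and 5.14% of all measured genes. Their median of 0.55 depends on the unit and filter, and Nr3c2 was furthest from 0 at 3.64 and 5.78 CPM. The differences were -0.16 for Nr3c1 and 0.55 for Nr3c2, both steroid receptor genes, and 0.55 for Ahr, which is not one.

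The genes nearest to Hsp90aa1 in difference, among 89 with a mean CPM within 2-fold of its own, were Scg2, Nqo1 and Slc7a11, with differences of 1.43, 1.31 and 1.17 beside 1.52. For Hspd1 they were Rhoc, Hepacam and Tmem43 among 726, with differences of 0.63, 0.62 and 0.61. For Hsf1 they were Tmem38a, Lonp2 and Fbxl6 among 5029, each at 0.09. Likeness here rests on 1 difference between 2 libraries.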
